A study of Rattus norvegicus with 24 samples.

Results

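The hypothalamic paraventricular nucleus (PVN) was compared between rats that had been needled without current around a partial hepatectomy (sham electroacupuncture, SEA) and rats that had the hepatectomy alone (HT). The comparison takes 6 of the 24 libraries of the series, 3 in each group, chosen by the PVN, SEA and HT labels in their titles. All were young male Sprague-Dawley rats anaesthetised for removal of part of the left liver lobe. In the SEA rats, steel needles were placed at the Zusanli and Sanyinjiao acupoints of the hind limb on one side, a day ahead of surgery and again straight after it, and were never joined to the stimulator. HT rats spent the same sessions awake in the restraint device with no needle. Surgery, anaesthesia and restraint are thus shared, and the needles are the planned difference. Tissue was taken a day after the last session. The study's methods count 12 rats in 4 groups and also state that brain samples were not all taken from one animal, so whether a library is 1 rat, and whether libraries of different regions share a rat, is not known here.

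Neurons of the PVN make corticotropin-releasing hormone, vasopressin, oxytocin, thyrotropin-releasing hormone and somatostatin, and they start the hormonal stress response that ends in glucocorticoid release from the adrenal gland. Glucocorticoids act back on the brain through receptors that switch on a known set of genes. Interferons, which cells release on infection and at low level without it, act through a complex that holds the transcription factor IRF9 and switches on a separate set of antiviral genes. Comparing SEA with HT addresses what needles without current add to the operation.

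The libraries held 14815382 to 16113207 counts, and mitochondrial genes took 7.07% to 8.01% of them. Levels are given in CPM, each count divided by the size of its library after TMM scaling over the 12 PVN libraries, and differences are log2 fold changes of SEA over HT with their standard errors (SE). Otp, a transcription factor that PVN neurons need, had 29.1, 25.3 and 24.7 CPM in the HT libraries and 31.7, 27.6 and 28.7 in SEA, against 0.116 to 1.35 CPM in the HT and SEA libraries of the central nucleus of the amygdala (CEA). Markers of the neighbouring thalamus were also present, and their summed level in the PVN was 947, 895 and 607 CPM in HT and 684, 936 and 537 in SEA. Across genes, profiles of an SEA and an HT library correlated as closely as profiles within a group, with a median r of 0.983 both between and within the groups. These are correlations over genes, which are not independent replicates.

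No gene passed an adjusted p of 0.05 by the quasi-likelihood test of edgeR (0 of 16634, lowest adjusted p = 0.424). An unadjusted p under 0.05 was reached by 728 genes or 4.38%, where 832 are expected if no gene differs, and DESeq2 called 21 genes at an adjusted p of 0.05. At an unadjusted p DESeq2 had 441 or 2.65%. Of the 728, 401 were higher in SEA (2.41%) and 327 lower (1.97%), and 486 differed by less than 1.5-fold. The SEA and HT libraries did not overlap for 9.93% of all genes, with SEA above for 5.18% and below for 4.74%. For 98.7% of the 10627 genes with a mean of at least 10 CPM the 95% interval lay inside a 2-fold difference either way, and this held for 65.6% of the genes below that level. The genes below are therefore described by their values, and a gene is called higher or lower only at the unadjusted threshold.

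Of the hormone genes of the PVN, Avp, Sst, Trh and Vip were higher in SEA at that threshold. Avp, the gene of vasopressin, had 227, 273 and 182 CPM in HT and 294, 394 and 292 in SEA. All SEA libraries lay above all HT libraries, and the means were 227 ± 45.6 and 327 ± 58.3 CPM (SD, n = 3). The difference was 1.44-fold (log2 fold change 0.53, SE 0.16, unadjusted p = 0.00968 by edgeR). Sst, the gene of somatostatin, which restrains growth hormone release, had 214, 223 and 173 CPM in HT and 248, 244 and 259.6 in SEA (log2 fold change 0.30, SE 0.09, unadjusted p = 0.00851). Trh, whose product drives the thyroid axis, had 89.6, 78.8 and 57.5 CPM and 93.4, 99.4 and 102 CPM (log2 fold change 0.39, SE 0.14, unadjusted p = 0.0220). The groups did not overlap for either gene. Vip, the gene of vasoactive intestinal peptide, had 11.2, 6.20 and 5.57 CPM in HT and 13.6, 12.9 and 10.4 in SEA, where HT replicate 1 lay above SEA replicate 3 (log2 fold change 0.69, SE 0.25, unadjusted p = 0.0260). These were 4 of the 20 neuroendocrine peptide genes tested, with 0 lower, beside 4.38% of all genes, and the median log2 fold change of the 20 was 0.06.

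The other main hormones gave no such difference. Crh, the gene of corticotropin-releasing hormone, had 7.74, 7.81 and 4.51 CPM in HT and 9.04, 8.64 and 8.001 in SEA, with no overlap and a log2 fold change of 0.36 (95% interval -0.12 to 0.84, unadjusted p = 0.124). Oxt, the gene of oxytocin, had 577, 602 and 157 CPM in HT and 540.3, 689 and 495 in SEA. HT replicate 3 stood far below the other 5 libraries. The interval of the log2 fold change of Oxt, -0.57 to 1.31, leaves room for a difference in either direction. HT replicate 3 was also the lowest HT library for Avp, Sst, Trh, Vip and Crh. With it left out, the log2 fold changes were 0.39 for Avp, 0.20 for Sst, 0.22 for Trh, 0.50 for Vip, 0.14 for Crh and -0.04 for Oxt, and the unadjusted p stayed under 0.05 for Avp, Sst and Trh (0.0245, 0.00599 and 0.0172) but not for Vip (0.0771). Without HT replicate 3, 3 of the 20 peptide genes were higher and 1 lower, and without SEA replicate 2 the counts were 2 and 1. Leaving out SEA replicate 2 gave 0.37 for Avp (unadjusted p = 0.0393) and an unadjusted p of 0.0563 for Trh. In unoperated normal control rats (NC) the level was 291, 314 and 394 CPM for Avp, 155, 105 and 134 for Trh and 12.8, 8.53 and 13.02 for Crh, in every library above the HT mean of its gene. In bulk tissue, more cells of a type and more RNA per cell cannot be told apart.

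**Figure D1:**
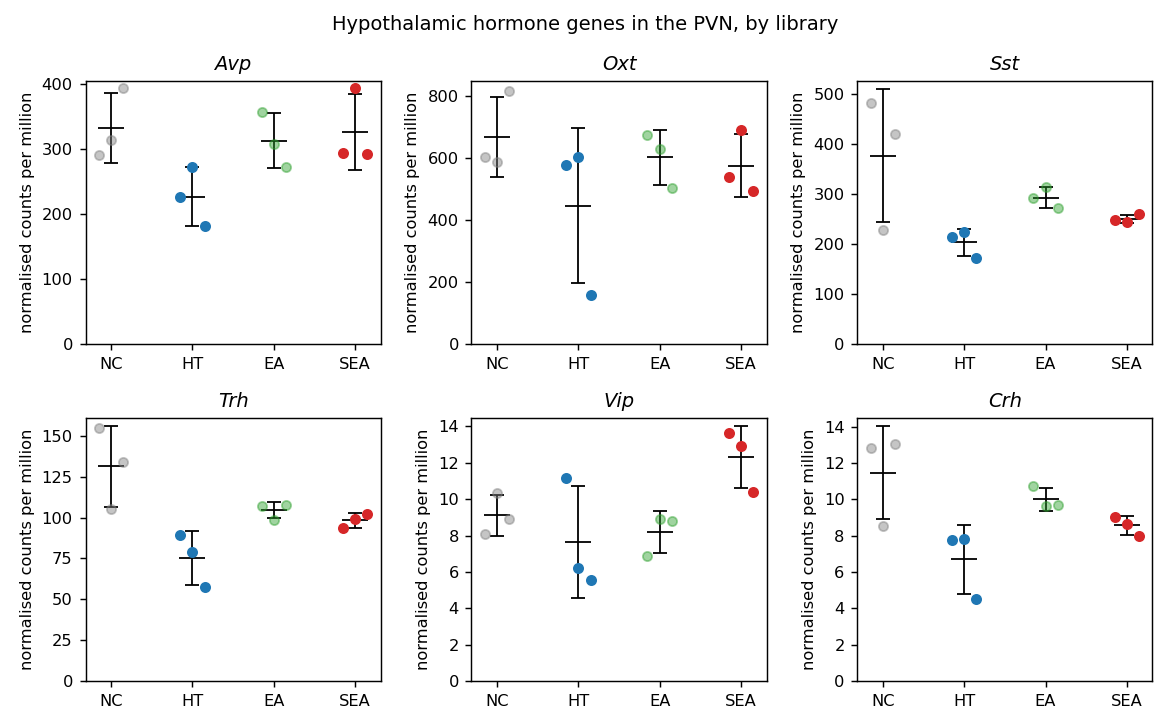
Levels in CPM of 6 hormone genes in the 12 PVN libraries. Each point is a library, the dash and bar give the mean and SD of 3 libraries, and the axes start at 0; HT and SEA are drawn solid, and normal control (NC) and electroacupuncture with current (EA) are drawn faint. The SEA points of Avp, Sst, Trh and Crh lie above all HT points, and the lowest HT point of each panel is replicate 3.

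The prohormone processing genes were close to level between the groups. Of 14 tested, Cadps2, which primes secretory granules for release, was higher (log2 fold change 0.21, unadjusted p = 0.0281), and Pcsk2, a convertase that cuts prohormones into peptides, was lower (log2 fold change -0.14, unadjusted p = 0.0498), beside 2.41% and 1.97% of all genes. Without SEA replicate 1 or SEA replicate 3 the list had 0 in either direction. Of the 16 PVN transcription factors and the 19 stress axis receptors and regulators tested, 0 reached the unadjusted threshold. The opioid genes, with 8 tested, gave 0 as well. Leaving out HT replicate 1 gave 2 of the transcription factors higher. Leaving out SEA replicate 2 gave 1 of the stress axis genes higher and 1 lower. Oprm1, the gene of the mu opioid receptor, had 20.2, 14.4 and 8.64 CPM in HT and 16.3, 16.1 and 13.1 in SEA (log2 fold change 0.08, 95% interval -0.53 to 0.68). The opioid precursor genes Penk and Pdyn had intervals of -0.16 to 0.17 and -0.05 to 0.20 on the log2 scale, which leaves little room for a change of their level.

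Genes known to be induced by glucocorticoids separated single libraries more than they separated the groups. Of 25 tested, 0 were higher and 1 was lower in SEA at the unadjusted threshold, beside 2.41% and 1.97% of all genes, 17 of the 25 log2 fold changes were below 0, and their median was -0.18. HT replicate 3 was the highest of the HT libraries for 25 of the 25 genes and the highest of all 6 libraries for 21. SEA replicate 3 was the highest SEA library for 21 of them. The summed level of the list was 524, 606 and 1867 CPM in HT and 611, 743 and 1294 in SEA.

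Zbtb16, a transcription factor gene induced by glucocorticoids, had 7.37, 9.97 and 42.7 CPM in HT and 12.1, 15.5 and 10.1 in SEA. Sgk1, a kinase gene that glucocorticoids switch on within hours, had 25.1, 32.1 and 222 CPM in HT and 48.6, 68.6 and 201 in SEA. Fkbp5, which encodes a chaperone that dampens the glucocorticoid receptor, had 30.1, 30.2 and 100.3 CPM in HT and 34.1, 33.7 and 48.3 in SEA. In each of them HT replicates 1 and 2 lay below the lowest SEA library, and HT replicate 3 above every SEA library. Leaving out HT replicate 3 turned the direction of the list. The median of the list became 0.51, with 23 of 25 above 0, 9 higher and 1 lower at the unadjusted threshold, where 414 of all genes in that fit were higher and 395 lower. The log2 fold changes moved from -0.67 to 0.54 for Zbtb16, from 0.19 to 1.89 for Sgk1, from -0.47 to 0.36 for Fkbp5, from -0.49 to 1.09 for Gpd1, a glycerol metabolism gene, and from -0.36 to 1.06 for Pdk4, a kinase gene of glucose metabolism. Without SEA replicate 3 the median of the list was -0.52.

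Sult1a1, a sulfotransferase gene on the list, was lower in SEA with and without HT replicate 3. It had 17.6, 11.7 and 51.2 CPM in HT and 8.98, 9.32 and 9.07 in SEA (log2 fold change -1.56, SE 0.48, unadjusted p = 0.0111), and -0.68 (unadjusted p = 0.00525) without that library. Mt2A, a metallothionein gene, had 13.9, 13.1 and 56.99 CPM in HT and 10.2, 8.84 and 16.1 in SEA (log2 fold change -1.26, SE 0.55, unadjusted p = 0.0510). The small heat shock protein genes Cryab and Hspb1 were the 2 of 29 chaperone genes that were lower, with 0 higher, beside 1.97% and 2.41% of all genes. HT replicate 3 was the lowest of all 6 libraries for 21 of the 29, and without it 1 was lower and the median turned from 0.03 to -0.0617, with 8 above 0 in place of 20. Cryab had 29.5, 27.7 and 78.7 CPM in HT and 19.96, 23.7 and 26.96 in SEA (log2 fold change -0.94, SE 0.37, unadjusted p = 0.0342), with HT replicate 3 again the highest and a log2 fold change of -0.28 (unadjusted p = 0.0571) without it. Hspb1 had 6.99, 7.95 and 5.70 CPM in HT and 5.15, 4.56 and 4.22 in SEA (log2 fold change -0.56, SE 0.18, unadjusted p = 0.0122), where HT replicate 3 was the lowest of its group.

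**Figure D2:**
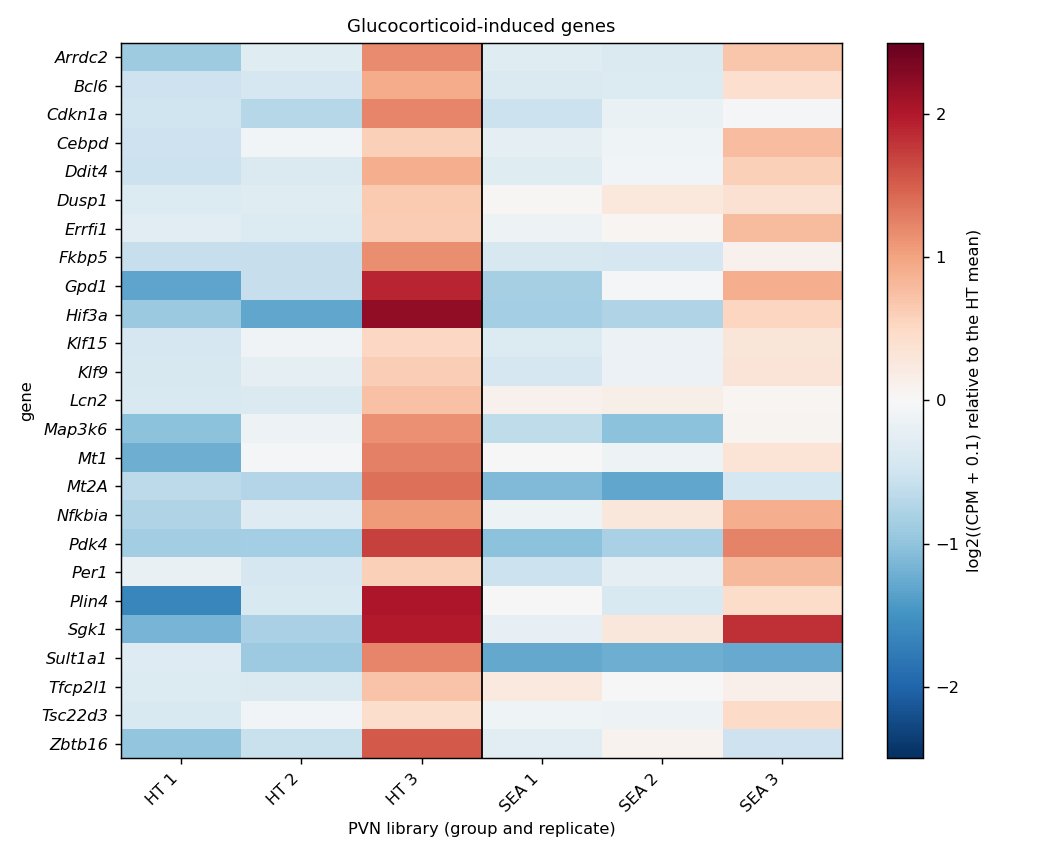
Levels of 25 glucocorticoid-induced genes in the 3 HT and 3 SEA libraries of the PVN, as log2 of CPM plus 0.1 relative to the mean of the HT libraries. Red is above and blue below that mean; the column of HT replicate 3 is red for all 25 genes, and SEA replicate 3 is the reddest SEA column.

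Of the genes that interferon switches on, 16 were higher in SEA, and SEA replicate 2 was most often the highest library. The list was written after values had been seen, so its counts are a description. Of 51 members tested, 49 had a log2 fold change above 0, and those 16 reached the unadjusted threshold with 0 lower, beside 2.41% and 1.97% of all genes, and 15 had every SEA library above every HT library, which 5.18% of all genes had. The median log2 fold change was 0.49, against 0.000576 over all genes tested. Summed over the list, HT had 947, 1006 and 988 CPM and SEA 1062, 1321 and 1057. That replicate was the highest of the 6 libraries for 45 of the 51 genes.

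Promoters of these genes in RefSeq (build GRCr8, 250 bases before to 50 after the gene start) were searched on both strands for a pair of GAAA blocks 2 bases apart, the core of the element through which interferon acts. The promoter table held 41 of the 51 members tested. The letters were found in 27 of them (65.9%), in 9 of the 12 called members with a promoter there, and in 3.92% of the 33469 promoters of the table. A match is a description of the letters and not a bound site. Shown are promoters of a transcription factor, an RNA sensor and a secreted protein of the list, with each match in capitals on the strand of the gene. In Oas1a 2 matches overlap, and in Irf7 the match lies on the other strand and reads as TTTC blocks, its first base 69 bases before the start.
Irf7 promoter, chr1:205799974-205800273, minus strand: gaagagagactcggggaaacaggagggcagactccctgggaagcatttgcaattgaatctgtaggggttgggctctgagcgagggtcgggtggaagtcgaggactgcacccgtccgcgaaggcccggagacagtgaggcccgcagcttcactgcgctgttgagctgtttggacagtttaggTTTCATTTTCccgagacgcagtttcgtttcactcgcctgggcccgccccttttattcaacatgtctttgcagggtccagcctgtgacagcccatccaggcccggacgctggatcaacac
Oas1a promoter, chr12:41330216-41330515, plus strand: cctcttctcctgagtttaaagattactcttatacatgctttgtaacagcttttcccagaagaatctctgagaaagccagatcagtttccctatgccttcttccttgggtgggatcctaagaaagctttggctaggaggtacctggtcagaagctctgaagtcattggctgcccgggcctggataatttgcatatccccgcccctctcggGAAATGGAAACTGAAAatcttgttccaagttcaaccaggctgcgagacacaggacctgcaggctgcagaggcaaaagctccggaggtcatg
Lgals3bp promoter, chr10:104127799-104128098, minus strand: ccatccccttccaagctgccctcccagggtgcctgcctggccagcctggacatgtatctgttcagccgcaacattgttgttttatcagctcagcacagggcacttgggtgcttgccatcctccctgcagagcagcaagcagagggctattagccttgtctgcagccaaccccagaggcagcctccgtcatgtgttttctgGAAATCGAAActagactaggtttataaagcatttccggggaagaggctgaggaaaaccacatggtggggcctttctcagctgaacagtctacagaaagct

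Among the regulators, Irf9 (ENSRNOG00000019478, chromosome 15, 34282936 to 34288138, plus strand in the coordinates of the count table), the DNA-binding part of the interferon-activated complex, had 15.7, 16.8 and 16.7 CPM in HT and 23.8, 25.2 and 19.9 in SEA (log2 fold change 0.49, SE 0.11, unadjusted p = 0.00171). Its lowest SEA library stood above its highest HT library. Irf7 (ENSRNOG00000017414, chromosome 1, 214248837 to 214252456, minus strand), a factor that interferon induces and that amplifies further interferon production, had 6.37, 5.66 and 4.57 CPM in HT and 10.5, 23.9 and 10.02 in SEA. This was 2.67-fold higher (log2 fold change 1.42, SE 0.34, unadjusted p = 0.00273), with means of 5.53 ± 0.904 and 14.8 ± 7.90 CPM (SD over 3 libraries), and DESeq2 gave it an adjusted p of 0.00927. Usp18, which switches the interferon receptor off again, had 2.68, 2.49 and 1.32 CPM in HT and 6.22, 10.7 and 3.84 in SEA, 3.19-fold higher (log2 fold change 1.67, SE 0.40, unadjusted p = 0.00290; DESeq2 adjusted p = 0.0233). Stat2, another part of the complex, and Adar, an RNA-editing enzyme gene, lay close to level (log2 fold changes -0.03 and 0.06).

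The antiviral effectors were next. Oas1a, which makes the signal that activates RNA decay, had 1.19, 1.48 and 1.13 CPM in HT and 2.83, 7.68 and 2.46 in SEA (log2 fold change 1.77, SE 0.46, unadjusted p = 0.00444). Oasl, a relative of it, had 0.312, 0.606 and 0.313 and 1.32, 2.58 and 1.01 CPM (log2 fold change 1.98, SE 0.49, unadjusted p = 0.00319). Mx2, a GTPase that blocks virus replication, had 20.5, 26.1 and 17.7 CPM in HT and 30.9, 41.6 and 28.9 in SEA (log2 fold change 0.66, SE 0.17, unadjusted p = 0.00467). In all of them SEA replicate 2 was the highest library and SEA replicates 1 and 3 still lay above the HT libraries. Lgals3bp, which encodes a secreted galectin-binding protein, had 21.8, 20.3 and 21.3 CPM in HT and 24.3, 28.7 and 27.03 in SEA (log2 fold change 0.34, SE 0.09, unadjusted p = 0.00491). Eif2ak2, the kinase gene that stops translation on double-stranded RNA, had 24.8, 26.2 and 25.6 and 28.5, 30.4 and 29.6 CPM (log2 fold change 0.21, SE 0.07, unadjusted p = 0.0177), with no overlap.

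The remaining called members were Igtp, Dtx3l, Parp9, Parp14, Rtp4, Ifi44, Tap1 and Dhx58, with log2 fold changes from 0.39 (Dhx58, an RNA sensor) to 1.25 (Rtp4). Tap1 loads peptides for class I histocompatibility molecules, and Parp9 and Dtx3l work as a pair that modifies histones and virus proteins. Ifit3 and Bst2, also on the list, had log2 fold changes of 1.10 and 0.83 but did not reach the threshold (unadjusted p = 0.0644 and 0.0672). With SEA replicate 2 left out, 9 of the 51 were higher and 0 lower, 42 were above 0 and the median was 0.25. Irf7 was then 0.89 (unadjusted p = 0.00150). Without HT replicate 3, 12 were higher and the median was 0.35, and without SEA replicate 3, 28 were higher. Among the 12 microglia markers tested, 1 was higher and 0 lower, beside 2.41% and 1.97% of all genes, namely Csf1r, a receptor microglia need to survive (log2 fold change 0.21, SE 0.09, unadjusted p = 0.0359), and the summed marker level was 394 to 440.0 CPM in HT and 382 to 488 in SEA. SEA replicate 2, the library with the high interferon genes, was the highest SEA library for 10 of the 12 microglia markers and the highest of all 6 libraries for 7, and without it 0 of the 12 were higher and 1 was lower. The part of these markers in the interferon genes was not tested.

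**Figure D3:**
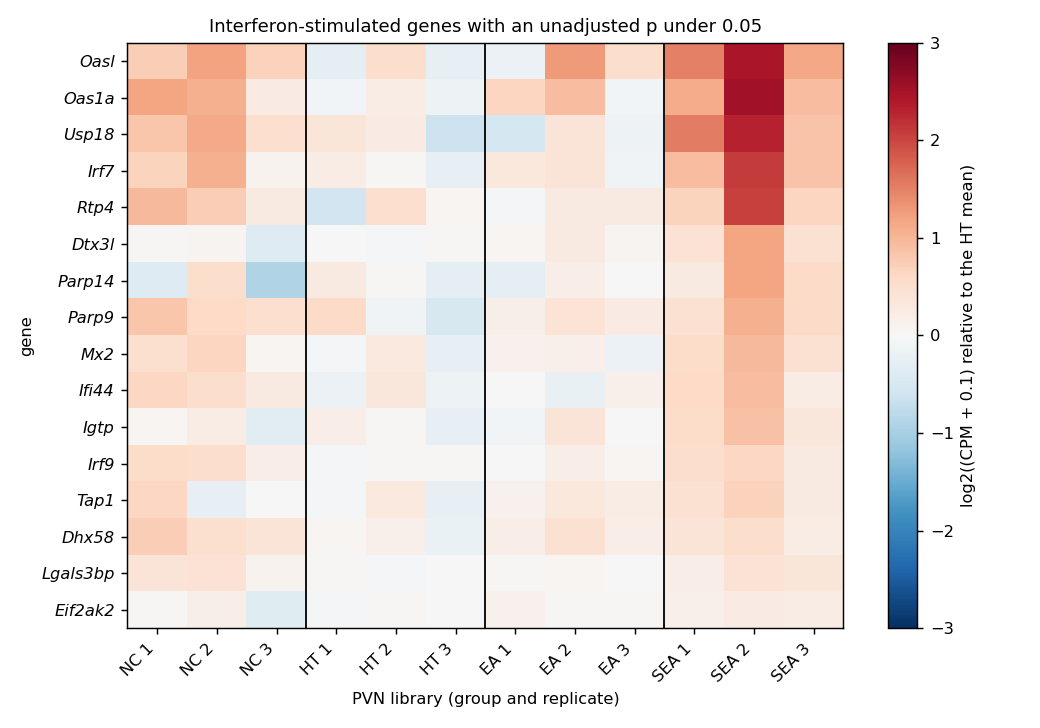
The 16 interferon-stimulated genes with an unadjusted p under 0.05 in the 12 PVN libraries, as log2 of CPM plus 0.1 relative to the mean of the HT libraries. Red is above and blue below that mean; SEA replicate 2 is the reddest column, SEA replicates 1 and 3 are paler red, the EA columns are close to white apart from Oasl and Oas1a in EA replicate 2, and the NC columns vary between genes.

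The same genes were also read in the other libraries. Against EA, the rats needled with current, 28 of the 51 members were lower in EA than in SEA at the unadjusted threshold and 0 higher, beside 3.0% and 2.2% of all genes, and the median log2 difference of EA over SEA was -0.50. That comparison shares the SEA libraries with the one against HT. The difference between EA and SEA was -1.77 for Usp18 (unadjusted p = 0.00124), -1.22 for Irf7 (unadjusted p = 0.00443), -0.64 for Mx2 (unadjusted p = 0.00178) and -0.41 for Irf9 (unadjusted p = 0.00521), and the edgeR adjusted p was above 0.05 for all of them. DESeq2 gave adjusted p of 0.00301 for Usp18, 0.0196 for Irf7 and 0.0212 for Mx2. In NC, the unoperated rats, Irf9 had 24.1, 23.6 and 18.8 CPM and Mx2 29.7, 32.9 and 21.9. NC replicates 1 and 2 lay within the SEA range for both genes, and replicate 3 lay below it, inside the HT range for Mx2.

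In the CEA libraries of the same groups, 6 of the 51 members were higher in SEA than in HT and 0 lower, beside 1.38% and 1.69% of all genes, 45 were above 0 and the median was 0.45. Irf7 had 5.48, 5.08 and 7.45 CPM in CEA HT and 9.71, 25.1 and 7.57 in CEA SEA (log2 fold change 1.22, unadjusted p = 0.0286). Usp18 had 1.93, 1.65 and 3.03 and 3.38, 9.33 and 2.47 CPM (log2 fold change 1.19, unadjusted p = 0.0580). SEA replicate 2 was the highest library for both genes in this region too. SEA numbers went together in part between the regions. LOC103690108 had 0, 1 and 1146 counts in PVN SEA and 0, 4 and 585 in CEA SEA. Rpl35al1 went the other way, with 0, 3 and 142 counts in PVN SEA and 155, 0 and 3 in CEA SEA. Deviations from the group mean correlated over genes at 0.2157, -0.0006 and 0.0727 for SEA replicates 1, 2 and 3. The CEA therefore cannot be counted as an independent set of animals. The difference between the regions in SEA against HT was tested as an interaction with the 12 libraries taken as independent. It had an unadjusted p under 0.05 for 0 of the 51 members, beside 2.53% of all genes, with a median of 0.02.

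Astrocyte genes lay in both directions. Of the 15 marker genes tested, 3 were higher in SEA and 2 lower, beside 2.41% and 1.97% of all genes, with a median log2 fold change of 0.07. Without HT replicate 3 the counts were 5 and 0. Without HT replicate 2 they were 2 and 1, and the median was -0.09. Aqp4, the water channel of astrocyte endfeet, had 606, 638 and 699.7 CPM in HT and 764, 783 and 872 in SEA (log2 fold change 0.32, SE 0.07, unadjusted p = 0.00187; DESeq2 adjusted p = 0.0175). Gfap, the filament protein gene that rises in reactive astrocytes, had 235, 319 and 304 and 355, 339 and 403 CPM (log2 fold change 0.36, SE 0.11, unadjusted p = 0.0130). The groups did not overlap for either. Slc4a4, a bicarbonate transporter gene, was higher too (log2 fold change 0.19, SE 0.07, unadjusted p = 0.0197), whereas Aldoc, the astrocyte form of a glycolytic enzyme, was lower (log2 fold change -0.24, SE 0.09, unadjusted p = 0.0274), as was Aldh1l1, a folate enzyme gene (log2 fold change -0.26, SE 0.11, unadjusted p = 0.0429).

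A wider list of 55 astrocyte genes, written after values had been seen and holding those markers, had 13 higher and 6 lower, beside 2.41% and 1.97% of all genes, 14 and 3 without HT replicate 3, and 7 and 6 with all 4 PVN groups in 1 fit. Its members had a median log2 fold change of 0.04. Without HT replicate 1, 10 were higher and 8 lower, and the median was -0.03. Ednrb, the endothelin receptor B gene, had 114, 113 and 90.8 CPM in HT and 140.1, 143 and 159 in SEA (log2 fold change 0.48, SE 0.09, unadjusted p = 0.000826; DESeq2 adjusted p = 0.00469). Slc7a11, the cystine and glutamate exchanger gene, had 66.5, 68.2 and 63.8 and 95.8, 79.01 and 84.7 CPM (log2 fold change 0.39, SE 0.08, unadjusted p = 0.000730). Phgdh, the first enzyme gene of serine synthesis, had 112, 87.3 and 86.1 and 133, 131 and 123 CPM (log2 fold change 0.44, SE 0.10, unadjusted p = 0.00203). For each of the 3 the lowest SEA library stood above the highest HT library. The others higher were Fabp7, Ptprz1, Cspg5, Slc25a18, Slc7a10, Cldn10 and Plpp3, at log2 fold changes of 0.13 (Plpp3) to 0.45 (Fabp7).

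On the lower side, Ndrg2 had 1794, 1785 and 2020.4 CPM in HT and 1522, 1551 and 1626 in SEA (log2 fold change -0.25, SE 0.06, unadjusted p = 0.00286). Fam107a, a gene of astrocytes and neurons that glucocorticoids raise, had 163, 164 and 183 and 128, 144 and 135 CPM (log2 fold change -0.32, SE 0.07, unadjusted p = 0.00113). Timp4, an inhibitor of matrix proteases, had 66.7, 65.4 and 69.1 and 52.7, 59.97 and 49.7 CPM (log2 fold change -0.31, SE 0.08, unadjusted p = 0.00341). None of these overlapped between the groups. Htra1, a secreted protease gene, had 105, 98.6 and 209 CPM in HT and 77.3, 95.1 and 95.01 in SEA (log2 fold change -0.62, SE 0.26, unadjusted p = 0.0440), and -0.19 without HT replicate 3. HT replicate 3 was also the highest HT library for Ndrg2, Fam107a, Timp4, Aldoc and Aldh1l1, and their log2 fold changes without it were -0.19, -0.27, -0.29, -0.13 and -0.17. That library also had the high glucocorticoid-induced genes, whose part in these values was not tested.

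Ependymal markers gave calls in 1 direction, and the calls were lost with a library left out. Of 13 markers of ependyma and tanycytes tested, 4 were higher and 0 lower, beside 2.41% and 1.97% of all genes, and the 4 are Ccdc153, Ak7, Tmem212 and Dynlrb2. Ccdc153 had 14.1, 12.3 and 13.3 CPM in HT and 16.5, 15.3 and 18.2 in SEA (log2 fold change 0.34, SE 0.11, unadjusted p = 0.0146). Ak7 had 14.2, 11.99 and 9.90 and 15.01, 16.05 and 16.7 CPM (log2 fold change 0.40, SE 0.14, unadjusted p = 0.0196). Tmem212 and Dynlrb2 stood at log2 fold changes of 0.41 (SE 0.15) and 0.30 (SE 0.13). The 4 groups of values did not overlap, but the summed level of the whole list did, at 120.2 to 134 CPM in HT and 115 to 146 in SEA, and the list's median was 0.05. Without SEA replicate 3, 0 of the 13 were higher and the median was -0.12, though the log2 fold changes of the 4 stayed at 0.26 (Ccdc153), 0.37 (Ak7), 0.36 (Tmem212) and 0.28 (Dynlrb2), and without HT replicate 3, 1 was higher and 1 lower. With all 4 PVN groups in 1 fit, 0 of the 13 were higher. Ependymal cells line the third ventricle beside the PVN, and how much of the ventricle wall each sample held was not measured. Cdhr3, a cadherin gene of ciliated cells, had 0.999, 1.48 and 0.752 CPM in HT and 4.96, 3.40 and 2.39 in SEA, 3.33-fold higher (log2 fold change 1.74, SE 0.36, unadjusted p = 0.00109).

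**Figure D4:**
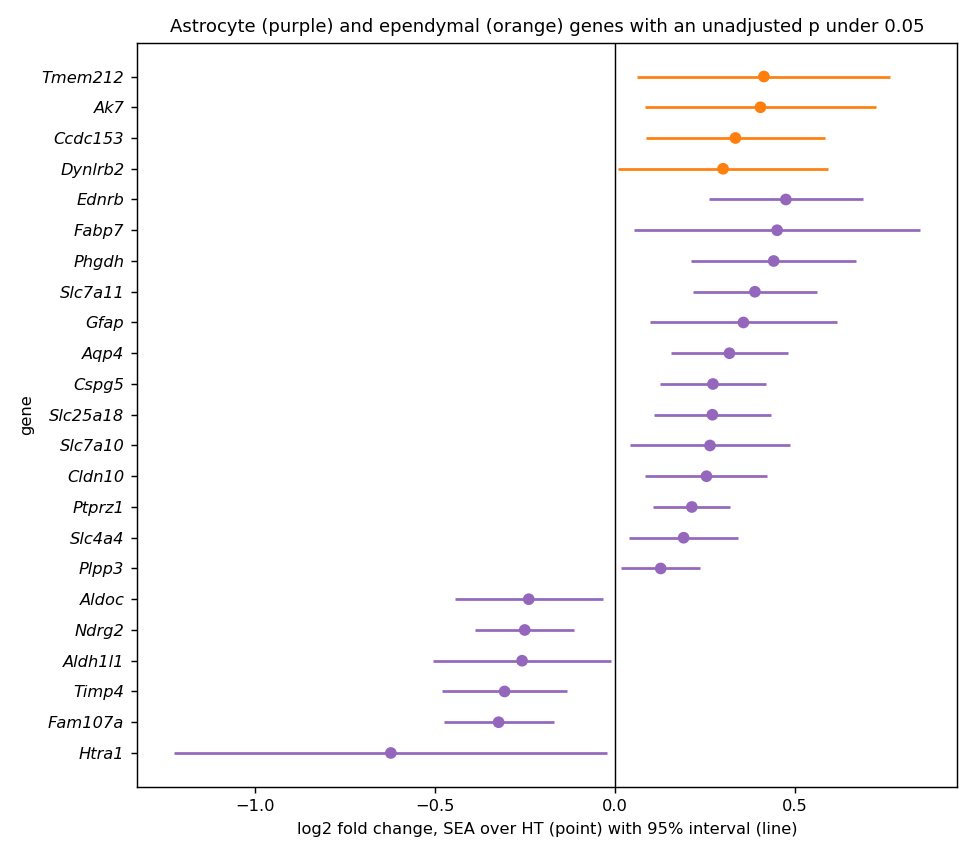
Log2 fold changes of SEA over HT in the PVN with 95% intervals for the astrocyte genes (purple) and ependymal genes (orange) that had an unadjusted p under 0.05. Points right of 0 are higher in SEA; 13 astrocyte and 4 ependymal genes lie to the right and 6 astrocyte genes to the left, most of them within 0.5 on the log2 scale.

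Other cell types gave few calls, to be read beside the 2.41% higher and 1.97% lower of all genes. Among 14 oligodendrocyte markers the myelin genes Ugt8, Opalin and Cnp were higher, at log2 fold changes of 0.21, 0.25 and 0.19, with overlapping groups, and 0 were lower. Leaving out HT replicate 1 or SEA replicate 2 gave 0 higher and 1 lower of the 14, and leaving out HT replicate 3 or SEA replicate 3 gave 0 in either direction. Uchl1, a neuronal deubiquitinase gene, was the 1 of 15 neuron markers that was lower (log2 fold change -0.20, SE 0.06, unadjusted p = 0.00610), with 0 higher. Markers of choroid plexus (8 tested), thalamus (12), striatum (13), cortex and hippocampus (13), other hypothalamic nuclei (13) and vessels (13) gave 0 calls. For the thalamus 10 of the 12 were below 0 with a median of -0.21, and 4 were lower without SEA replicate 2 (median -0.39). The part of this neighbouring tissue in the hormone and receptor values was not tested. Of 12 markers of meninges and fibroblasts Slc6a13, a GABA transporter gene, was lower (log2 fold change -0.52, SE 0.23, unadjusted p = 0.0493). Among the blood markers, 7 tested, 1 haemoglobin alpha gene was higher. Of the 7, 5 were below 0 and the median log2 fold change was -0.37. Without HT replicate 2, 4 of the 7 were above 0 and the median was 0.44. The summed level, which the haemoglobin genes dominate, was 539.6 to 813 CPM in HT and 774 to 1065 in SEA.

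Outside these lists, the gene with the smallest p was Selenbp1 (ENSRNOG00000053812, chromosome 2, 196105569 to 196113149, minus strand), which encodes a selenium-binding protein that oxidises methanethiol. It had 8.93, 8.22 and 7.01 CPM in HT and 0.377, 0.544 and 1.51 in SEA, 9.78-fold lower (log2 fold change -3.29, SE 0.40, unadjusted p = 2.55e-05, adjusted p = 0.424). DESeq2 gave an adjusted p of 1.14e-12. The level also varied within other groups, from 0.441 to 3.85 CPM in EA and from 0.754 to 6.13 in NC. In the CEA it was 3.80, 0.306 and 4.02 CPM in HT and 2.51, 0.235 and 3.82 in SEA, so the groups overlapped there.

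Hrh3 (ENSRNOG00000061153, chromosome 3, 175473078 to 175479395, minus strand), the histamine H3 receptor that holds back transmitter release, was lower in both regions. It had 143, 132 and 158 CPM in PVN HT and 86.3, 116 and 92.9 in PVN SEA (log2 fold change -0.55, SE 0.11, unadjusted p = 0.00104; DESeq2 adjusted p = 0.00227). In the CEA the values were 289.6, 339.9 and 289.6 CPM in HT and 169, 216 and 183 in SEA, with a log2 fold change of -0.71 (unadjusted p = 0.00207). Neither region had an overlap between the groups, and PVN NC, at 80.5, 89.3 and 90.6 CPM, lay with SEA. Hdc, the enzyme gene of histamine synthesis, had 28.3, 30.03 and 51.1 and 28.00, 28.1 and 28.6 CPM in the PVN (log2 fold change -0.37, unadjusted p = 0.108).

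Further genes higher without overlap were Exoc2, Enpp3, Crot and Ankrd66. Exoc2, a subunit of the complex that tethers secretory vesicles, had 20.97, 15.1 and 19.4 CPM in HT and 28.4, 28.7 and 30.4 in SEA (log2 fold change 0.66, SE 0.12, unadjusted p = 0.000540; DESeq2 adjusted p = 0.0116), and the EA libraries at 11.5, 21.96 and 9.27 CPM all lay outside the HT range, 2 below it and 1 above. Enpp3, an ectoenzyme that splits nucleotides, had 1.69, 1.62 and 1.25 CPM in HT and 3.45, 2.99 and 3.28 in SEA (log2 fold change 1.09, SE 0.22, unadjusted p = 0.00102). Crot, a peroxisomal carnitine transferase gene, had 22.4, 25.3 and 24.2 and 30.6, 30.5 and 34.02 CPM (log2 fold change 0.41, SE 0.08, unadjusted p = 0.00104). Ankrd66, an ankyrin repeat gene, had 2.18, 1.95 and 1.44 and 3.45, 3.88 and 3.78 CPM (log2 fold change 0.99, SE 0.22, unadjusted p = 0.00189).

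Genes lower without overlap included Mylk, Synm and Nhlh2. Mylk, the myosin light chain kinase, had 31.8, 48.7 and 36.1 CPM in HT and 27.5, 20.9 and 21.99 in SEA (log2 fold change -0.72, SE 0.17, unadjusted p = 0.00210), and Synm, an intermediate filament gene, had 92.6, 81.3 and 108 and 73.6, 60.3 and 71.2 CPM (log2 fold change -0.45, SE 0.11, unadjusted p = 0.00316). Nhlh2, a transcription factor of hypothalamic neurons, had 12.4, 13.1 and 12.8 and 8.85, 9.79 and 8.19 CPM (log2 fold change -0.51, SE 0.12, unadjusted p = 0.00189). Chid1, Wdr54 and Aldh18a1 had larger differences that varied widely within HT. Chid1, a chitinase-like gene, had 10.9, 10.8 and 22.1 CPM in HT and 5.52, 1.77 and 3.84 in SEA (log2 fold change -1.97, SE 0.41, unadjusted p = 0.00115), Wdr54 had 18.5, 9.16 and 38.96 and 7.22, 5.10 and 5.67, and Aldh18a1, a proline synthesis gene, had 13.05, 2.15 and 4.07 and 1.19, 1.16 and 0.945. Inafm1 was lower by a small and even amount (log2 fold change -0.33, SE 0.07, unadjusted p = 0.00194).

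Of 31 immediate early genes tested, which neurons switch on when active, 1 was higher and 1 lower, beside 2.41% and 1.97% of all genes. Egr1 was the higher (log2 fold change 0.50, SE 0.21, unadjusted p = 0.0458) and Nr4a2 the lower (log2 fold change -0.32, SE 0.14, unadjusted p = 0.0432). Of the 31, 23 were above 0. Without HT replicate 3 or SEA replicate 2 the counts were 3 and 0, and without SEA replicate 1 they were 0 and 0. Fos had 20.97, 14.9 and 12.03 CPM in HT and 18.96, 16.9 and 25.7 in SEA (log2 fold change 0.37, 95% interval -0.14 to 0.87). Among transmission genes, Gad2, which makes GABA, had 488, 508 and 406 CPM in HT and 529.9, 519 and 597 in SEA (log2 fold change 0.23, SE 0.09, unadjusted p = 0.0298) as the 1 of 23 GABA genes called, beside 4.38% of all genes, and 0 of the 23 were called without SEA replicate 3 and 3 without HT replicate 2 or SEA replicate 2. Grm2, a presynaptic glutamate receptor gene, was the 1 of 24 glutamate receptor genes called, at 62.5, 61.1 and 55.1 and 24.7, 55.6 and 24.8 CPM (log2 fold change -0.77, SE 0.28, unadjusted p = 0.0247). SEA replicate 2 lay inside the HT range. Chrm3, a muscarinic receptor gene, was the 1 called of 19 serotonin and acetylcholine receptor genes (log2 fold change -0.23, SE 0.09, unadjusted p = 0.0352), and P2rx4, an ATP-gated channel gene, the 1 of 20 purine genes (log2 fold change -0.51, SE 0.19, unadjusted p = 0.0292). All of these were lower apart from Gad2, and a single call in a list of 19 to 24 genes is close to the share over all genes.

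Of 16 genes that the text of the study names, 4 were higher (Avp, Sst, Trh and Actb) and 1 was lower, beside 2.41% and 1.97% of all genes, and without HT replicate 3 the counts were 3 and 3 and the median moved from 0.11 to -0.0174. The study chose these genes on libraries of this series, so their count is not independent evidence. The clock genes, 19 tested, gave 0 calls, and of 32 acute phase and cytokine response genes Irf7 was the 1 called, beside 4.38% of all genes. Without SEA replicate 3, 4 of the 32 were higher and 0 lower, and the median was 0.02 in place of 0.15. Without HT replicate 1, 3 were higher and 2 lower. Of 25 cholesterol and fatty acid synthesis genes 20 were above 0 and 1 was higher, Scd, a desaturase gene (log2 fold change 0.51, SE 0.20, unadjusted p = 0.0315), beside 2.41% of all genes. SEA replicate 3 was the highest SEA library for 23 of the 25 and HT replicate 2 the highest HT library for 21. Without SEA replicate 3, 0 were higher and 15 above 0, and without HT replicate 2, 5 were higher and 24 above 0. Of 27 synaptic plasticity genes Actb was the 1 called (log2 fold change 0.14), beside 4.38% of all genes. Lists of ribosomal and respiratory genes had more members below 0 than above, by small amounts that rested on single libraries, to be read beside the 2.41% and 1.97% of all genes called. Of 85 cytosolic ribosomal protein genes 61 were below 0 with a median of -0.03, 1 higher and 1 lower, of 85 nuclear oxidative phosphorylation genes 63 were below 0 with a median of -0.04, 1 higher (Cycs) and 1 lower (Cox6a2), and of 13 mitochondrial genome genes 11 were below 0 with 1 lower (Mt-nd3, log2 fold change -0.16, SE 0.05, unadjusted p = 0.0200). With HT replicate 3 left out, 44 of the 85 ribosomal genes were above 0 (median 0.00354), but with HT replicate 2 left out 15 were (median -0.064). Leaving out SEA replicate 1 gave 0 ribosomal genes higher and 7 lower. With HT replicate 2 left out, 39 of the 85 oxidative phosphorylation genes were above 0 (median -0.00658). With SEA replicate 3 left out, 6 of the 13 mitochondrial genes were above 0 (median -0.00139).

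**Figure D5:**
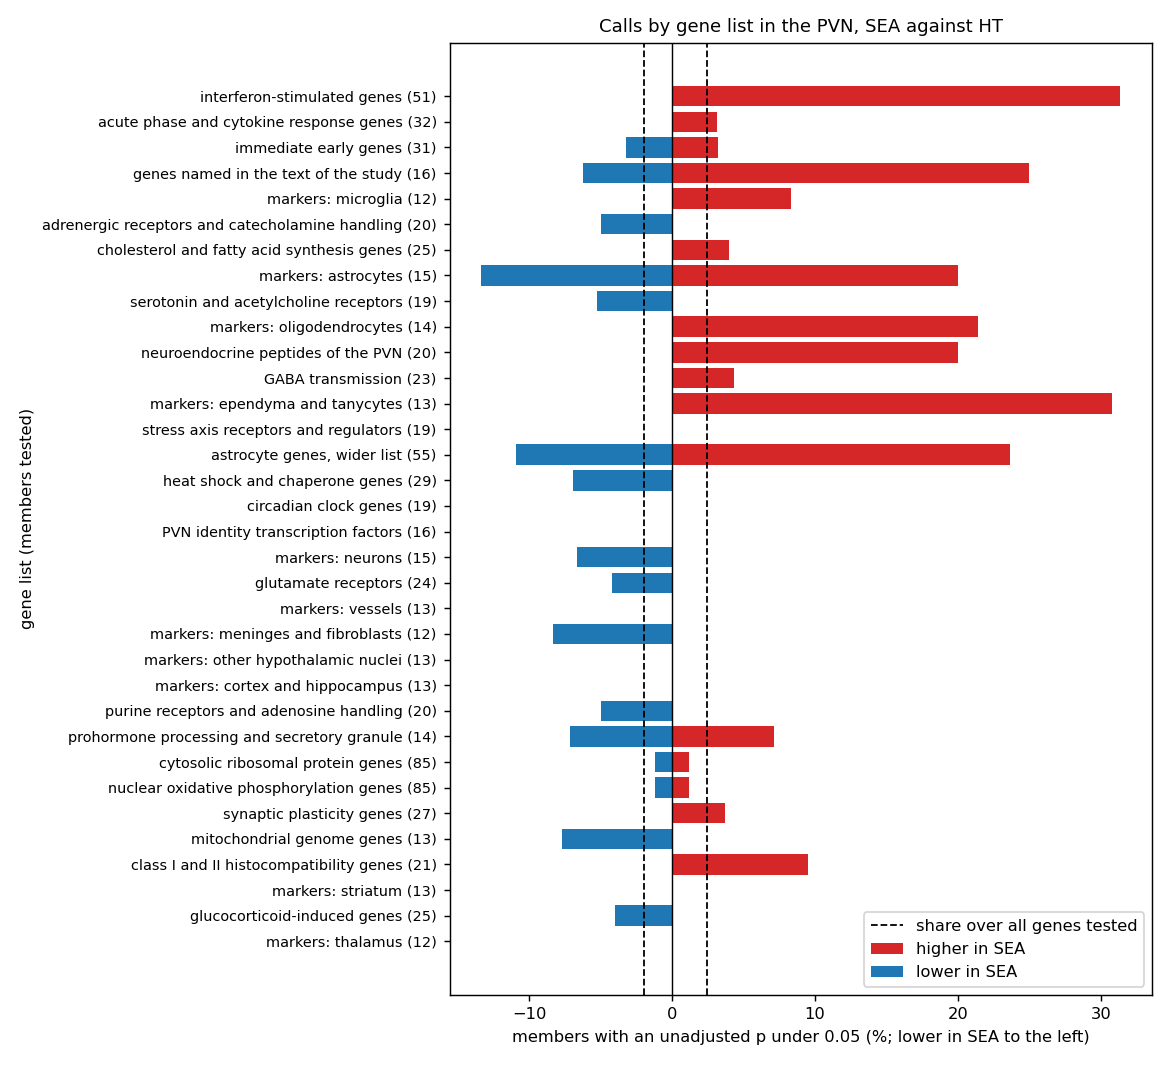
Percent of the tested members of each gene list of at least 10 members with an unadjusted p under 0.05 in PVN SEA against HT, higher in SEA to the right and lower to the left; lists are ordered by median log2 fold change, and the number tested stands in brackets. Dashed lines mark the shares over all genes tested, 2.41% and 1.97%. The interferon-stimulated list reaches furthest to the right, and the astrocyte lists reach both ways; short lists move in large steps.

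Some genes were present in one library of a group and nearly absent in another. With at least 100 counts in one library and at most 3 in another of the same group, 6 genes qualified, 5 of them within SEA and 2 within HT. LOC100364500, a class I histocompatibility gene on chromosome 20, had 116, 98 and 244 counts in HT and 1, 2 and 227 in SEA, so that SEA replicate 3 matched HT and replicates 1 and 2 did not. LOC103690108, another class I gene of that chromosome, had 587, 639 and 1225 counts in HT and 0, 1 and 1146 in SEA. Its edgeR adjusted p was 0.981 with all libraries and 0.00732 without SEA replicate 3. In PVN NC, LOC100364500 had 1, 1 and 0 counts and LOC103690108 had 0, 3 and 0. In PVN EA they had 87, 98 and 125, and 561, 615 and 650. SEA replicates 1 and 2 thus lay with NC for both genes, and SEA replicate 3 with HT and EA. What else differs between the rats was not tested. Fam111a had 1, 270 and 1 counts in HT and 2, 2 and 347 in SEA, each group with 1 library that stood apart, and it was left out by the filter on low counts. Among 21 histocompatibility genes tested, RT1-CE7 and RT1-T24-4 were higher (log2 fold changes 0.61 and 1.55) and 0 lower, beside 2.41% and 1.97% of all genes. Leaving out a library gave 0 higher and 1 lower without SEA replicate 1, 0 and 2 without SEA replicate 2, and 4 and 4 without SEA replicate 3. Reads of these near-identical genes may be split between copies, so their counts are uncertain.

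Single libraries also decided the few adjusted calls. Without HT replicate 3, Wbp11l1 was called, with 3.25, 4.44 and 20.2 CPM in HT and 29.3, 22.4 and 26.02 in SEA, at a log2 fold change of 2.75 (adjusted p = 0.00607 by edgeR) against 1.48 with all libraries. Without SEA replicate 3, Nhp2, a small nucleolar ribonucleoprotein gene, was called at 3.77, having 1.498, 1.68 and 2.07 CPM in HT and 22.7, 25.2 and 0.630 in SEA, and Timm17b, of a mitochondrial import complex, at 3.16, having 0.811, 0.875 and 0.564 and 6.22, 7.34 and 0.315. SEA replicate 3 lay with or below HT for both genes. Grm2 was called without SEA replicate 2, at -1.27 (adjusted p = 0.0153).

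Between SEA and EA the current is the planned difference. The class I genes LOC100364500 and LOC103690108 differed too, being near 0 in SEA replicates 1 and 2 and in no EA library. The test of EA against SEA made no call among 16606 genes at an adjusted p of 0.05 with edgeR (0 genes), against 865 or 5.21% at an unadjusted p under 0.05 and 24 with DESeq2. Of the genes above, Vip was lower in EA at 6.87, 8.88 and 8.82 CPM (log2 difference -0.59, unadjusted p = 0.00382), while Sst was higher, at 291, 314 and 272 CPM (log2 difference 0.22, unadjusted p = 0.00630). Avp, Trh and Crh had log2 differences of -0.07, 0.08 and 0.22, none with an unadjusted p under 0.05. Fos was lower in EA (log2 difference -0.70, unadjusted p = 0.00359) and Ndrg2 higher (log2 difference 0.21, unadjusted p = 0.00207). The log2 differences of Ednrb, Slc7a11 and Ptprz1, all lower in EA than in SEA, were -0.35 for Ednrb (unadjusted p = 0.0334), -0.31 for Slc7a11 (unadjusted p = 0.00646) and -0.25 for Ptprz1 (unadjusted p = 0.00182). Those of the other 2 astrocyte genes followed here were 0.01 for Gfap (unadjusted p = 0.886) and -0.17 for Aqp4 (unadjusted p = 0.0854).

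In the CEA, SEA against HT gave 503 genes at an unadjusted p under 0.05, or 3.07% of those tested. The interaction of region and treatment gave 437 or 2.53%, with 0 at the adjusted threshold by edgeR and 1 (0.0058%) by DESeq2. Sult1a1 was lower in this region too, and Mt2A was lower here at the unadjusted threshold. Sult1a1 had 27.01, 87.5 and 17.99 CPM in CEA HT and 10.6, 12.7 and 12.7 in CEA SEA (log2 fold change -1.89, unadjusted p = 0.00988), and Mt2A had 48.5, 165 and 54.96 and 24.1, 27.9 and 23.9 CPM (log2 fold change -1.84, unadjusted p = 0.00447). The HT library that stood high for the glucocorticoid-induced genes was replicate 2 in the CEA, with summed levels of 808, 3288 and 966 CPM, and replicate 3 in the PVN. Other values of HT replicates 2 and 3 were crossed between the regions in the same way. Fam111a had 270 counts in PVN HT replicate 2 and 228 in CEA HT replicate 3, with at most 3 in the other HT libraries, and AABR07066020.1 had 155 in PVN HT replicate 3 and 177 in CEA HT replicate 2. Over genes, deviations from the group mean correlated at 0.196 between PVN HT replicate 3 and CEA HT replicate 2 and at 0.179 between PVN HT replicate 2 and CEA HT replicate 3, against -0.207 and -0.0857 for replicates 3 and 2 with their own numbers. Whether the numbers or the rats differ between the regions cannot be told apart here, and no library was renumbered. Log2 fold changes in the CEA were -0.60 for Ndrg2 (unadjusted p = 0.0110) and 0.78 for Ednrb (unadjusted p = 0.0140), and 0.44 for Avp (unadjusted p = 0.566), -0.18 for Sst (unadjusted p = 0.542) and 0.71 for Trh (unadjusted p = 0.259) among the hormone genes.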

How the data were processed

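Bulk RNA of both brain regions was sequenced. The authors aligned the reads with HISAT2 and counted them per gene with featureCounts, and the deposited values are these whole-number counts, not normalised, for 35032 genes, 1 column per library. The study's methods name the rat build mRatBN7.2, the submitters' processing notes list a human build, and the table names none. Coordinates are given as in the table, whose last gene on chromosome 1 ends at 282724300. The libraries were strand-specific, and whether the counting used strand is not given in the sources used here.

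Groups came from the titles. The 6 libraries were tested in edgeR 4.0.16 under R 4.3.3 with its quasi-likelihood fit (filterByExpr, TMM, two-sided, no covariate, Benjamini-Hochberg over all genes tested, threshold 0.05). EA against SEA was fitted likewise, and the difference between regions as an interaction over 12 libraries. The p-values measure the spread between 3 libraries a group. A single gene tested by exact permutation could not go below p = 0.1. DESeq2 1.42.0, DESeq2 size factors, library totals, other filters, all PVN groups in 1 fit, a replicate block and leaving out each library were alternatives. On simulated counts with 4-fold changes edgeR was tested before use.

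Members and gene lists were chosen with earlier results of these data known. Named were the 12 genes per direction with the smallest p, a symbol, a mean of at least 1 CPM and no overlap. Up to 5 genes called in each alternative and a fixed set of hormone, opioid and stress genes were added. So were up to 4 members of each list by smallest unadjusted p, called or not. The interferon-stimulated list, the wider astrocyte list and further genes given as list members or as contrasts were chosen after values were seen. Lists were described by counts and medians, without a test. Promoters came from RefSeq, build GRCr8. Molecular identifiers are not named in the sources used here. The result of 1 gene is not reported here.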

Additional observations from a re-analysis of the deposited data

How the results depend on the processing

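The count of genes at an adjusted p of 0.05 in PVN SEA against HT was 0 by edgeR, 21 by DESeq2 and 1 without the filter on low counts, and 0 to 5 when a library was left out. It was 0 under the other scalings, the stricter filter and all PVN groups in 1 fit. The count at an unadjusted p under 0.05 was 441 by DESeq2, 452 with all 4 PVN groups and 597 to 884 with a library left out. The self-test called genes at this sample size for simulated 4-fold changes, and it did not cover smaller ones.

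For EA against SEA the adjusted count was 24 by DESeq2 and 0 to 13 with a library left out, the highest without SEA replicate 3, and the unadjusted count was 536 with all 4 PVN groups. The difference between regions gave 1 call by DESeq2, and its unadjusted count ran from 290.0 to 1398 with a library left out, the latter without CEA HT replicate 1. The cause was not tested.

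A replicate block over the shared numbers left 0 adjusted calls and gave 931 unadjusted ones, 984 for EA against SEA and 341 for the regions. HT numbers did not match between the regions, so the last is no test of pairing. Same-numbered SEA and HT libraries had correlations of deviations of 0.0013, 0.0805 and 0.0939, so the numbers were not taken as pairs.

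With a library left out in turn, the log2 fold changes that turned sign ran from -0.0383 to 0.64 for Oxt, -0.19 to 0.40 for Oprm1, -0.75 to 0.36 for Fkbp5, -1.77 to 0.93 for Hif3a, -1.07 to 0.54 for Zbtb16, -1.07 to 1.09 for Gpd1 and -1.49 to 1.06 for Pdk4, where HT replicate 3 turned the sign. They ran from -0.0525 to 0.0548 for Penk, turned at -0.04 without HT replicate 1 and at the lower end without SEA replicate 3. For Sgk1 they ran from -0.67 to 1.89, turned at -0.26 without HT replicate 1, -0.22 without HT replicate 2 and at the lower end without SEA replicate 3. None of these genes was called with all libraries. Genes under 10 CPM had an interval inside 2-fold less often, at 65.6%, and the parts of depth and of spread in this were not tested.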
